A study of Mus musculus with 2 samples.

Results

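The solute carrier genes that move inorganic ions and metals were examined in RNA-seq of haematopoietic progenitor cells from the mouse aorta at embryonic day 11. Members were all rows of the count tables whose symbol belongs to the families SLC4, SLC8, SLC9, SLC11, SLC12, SLC24, SLC30, SLC31, SLC39, SLC40 and SLC41, which gave 68 of 24062 genes in 11 families. The naming rule itself reads the symbol and no measured value. The cells were CD31+ and KITint. Their C57BL6 embryos bore Gata2Venus, which reports with fluorescence on Gata2, a transcription factor gene of blood formation. Sorting on the reporter gave a Gata2Venus-negative and a Gata2Venus-positive population, with 1 library from each, called the Venus-negative and the Venus-positive library here. The labels enter the reporter sign under genotype and give sorting on the transgene's expression as the treatment, so it is taken here as a property of the sorted cells. The sources used here give neither the number of embryos nor the promoter of the transgene. The series concerns Gata2-independent progenitors, and the comparison addresses what distinguishes the sorted populations.

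Members of these families set pH, cell volume and the chloride, calcium, zinc, copper, iron and magnesium content of cells. Most SLC4 proteins carry bicarbonate, SLC9 proteins exchange sodium for protons, and SLC12 proteins move chloride together with sodium or potassium. The SLC8 and SLC24 exchangers remove calcium in return for sodium. For zinc, SLC39 proteins (ZIP) bring the metal into the cytosol and most SLC30 proteins (ZnT) take it out, to the outside or into organelles. SLC31 proteins take up copper, SLC11A2 imports ferrous iron, SLC40A1 (ferroportin) is the iron exporter of animal cells, and SLC41 proteins move magnesium. In blood-forming tissue, iron import feeds haem synthesis and ferroportin is prominent in macrophages that recycle red cells.

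Because each population has 1 library, no difference has a replicate check, and every comparison is one of these libraries and not of the conditions. Levels are CPM, a gene's counts relative to its library's total in genes after TMM scaling, and ratios put the Venus-negative library over the Venus-positive one. Square brackets hold exact 95% intervals, which cover counting error only and may be too narrow, because PCR copies made without molecular identifiers are not independent of each other. A gene was past the rule of size with 10 CPM and 50 counts or more on its higher side, provided that its ratio's whole interval was beyond 2-fold. Genes with at least 20 counts over both libraries were compared. Where a library had 0 counts, the ratio is a bound computed with 3 counts in that library. That is 0.288 CPM in the Venus-negative and 0.317 CPM in the Venus-positive library. Folds given as at least a value are such bounds and not interval ends. The 95% interval of such a gene can end nearer to equal expression.

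The libraries held 10135400 counts in genes (negative) and 9715131 (positive), and at least 1 count was found for 12392 and 12709 genes. Gata2 itself had 141 counts in the Venus-negative and 664 in the Venus-positive library (13.5 and 70.2 CPM), the direction the labels give. Pecam1, which encodes CD31, stood at 537 and 489 CPM. Kit stood at 199 and 60.7 CPM although both populations were sorted as KITint.

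A few promoters are shown because the zinc exporters and calcium exchangers described below include some of the plainest differences between the libraries. Another reason is that 1 zinc exporter gene, Slc30a1, has a known metal-responsive control element. The first pair are zinc exporter genes: Slc30a1, whose induction by zinc through metal response elements is well known, and Slc30a4, counted in 1 library alone. The third is Slc8a1, a calcium exchanger gene with more counts in the Venus-positive library. These are examples only. Slc24a3, a calcium exchanger gene with a larger difference, is not shown, and its windows held 0 GATA motifs. Each run covers 230 bases, from 250 to 21 bases before the start site, 5′ to 3′ on the gene's strand, in RefSeq's GRCm38.p6 (the mm10 build). Capitals in the zinc promoters mark matches to the metal response element core, searched as TGCACNC or TGCGCNC on both strands. Capitals in the Slc8a1 promoter mark GATA motifs, searched as AGATAA or AGATAG or TGATAA or TGATAG on both strands. Neither set had a match in a window where the other is marked. Slc30a1 lies on the plus strand at chr1:191906531-191906760, Slc30a4 on the minus strand at chr2:122702684-122702913 and Slc8a1 on the minus strand at chr17:81738408-81738637.
Slc30a1: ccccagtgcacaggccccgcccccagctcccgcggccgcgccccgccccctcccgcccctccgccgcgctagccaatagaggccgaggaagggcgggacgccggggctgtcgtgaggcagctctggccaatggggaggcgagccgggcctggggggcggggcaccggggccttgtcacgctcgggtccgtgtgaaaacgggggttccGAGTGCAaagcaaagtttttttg
Slc30a4: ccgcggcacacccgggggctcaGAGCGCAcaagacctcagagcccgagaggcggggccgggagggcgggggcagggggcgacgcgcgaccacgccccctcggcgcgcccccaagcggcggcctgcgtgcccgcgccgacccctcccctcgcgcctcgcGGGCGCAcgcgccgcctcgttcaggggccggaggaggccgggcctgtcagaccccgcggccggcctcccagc
Slc8a1: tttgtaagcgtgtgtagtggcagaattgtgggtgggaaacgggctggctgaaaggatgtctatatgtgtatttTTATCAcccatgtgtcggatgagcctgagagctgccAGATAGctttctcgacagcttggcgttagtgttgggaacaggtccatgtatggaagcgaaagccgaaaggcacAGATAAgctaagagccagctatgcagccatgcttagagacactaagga

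The Slc30a1 window holds 1 metal response element core, whose first letter lies 43 bases before the start site, and the Slc30a4 window holds 2, at 228 and 92 bases, all on the strand opposite to the gene. The Slc8a1 window holds 3 GATA motifs, at 177, 141 and 68 bases. Over all 32851 promoters in the RefSeq table, 19.5% held the metal response element core and 25.4% a GATA motif in the same window. Of the 68 members, 53 had at least 1 promoter in the table. The metal response element core was found for 22 of these 53 genes and a GATA motif for 15. By ratio, the core was found for 5 of 7 genes past the rule and higher in the Venus-negative library, 2 of 7 past it and lower and 15 of 39 others. A GATA motif was found for 0, 2 and 13 genes of the same groups. These are matches of letters and not evidence of binding. Counted by promoter, as the shares above are, 22 of the members' 67 promoters held the core and 17 a GATA motif.

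Most members that were well expressed were not past the rule of size, whereas the weakly expressed ones were often counted in 1 library alone. Of the 68 members 17 had 0 counts in both libraries, 5 had fewer than 20 counts in all and 46 were compared. Of those 46, 9 were past the rule of size and higher in the Venus-negative library (19.6%, against 12.6% of the 12544 genes compared) and 8 were lower (17.4%, against 12.3%), and 29 were not past it. The shares of all compared genes, 12.6% higher and 12.3% lower, apply equally to the family and list counts below. The median log2 ratio was 0.02 over the 46 members and −0.01 over all compared genes. The summed level of all members was 2130 CPM in the Venus-negative and 2047 CPM in the Venus-positive library.

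Nearly all of the members past the rule were of low abundance. Among members with a mean level below 10 CPM, 9 of 16 were past it, against 24.6% of all genes at that level, and from 10 to 50 CPM 7 of 17, against 35.7%. From 50 to 100 CPM 0 of 7 members were past it, against 18.8% of genes. At 100 CPM or more 1 of 6 was past it, the iron exporter gene Slc40a1, against 10.1%. A count of 0 in the Venus-positive and at least 50 in the Venus-negative library was found for 6 of 46 members (13.0%), against 4.002% of all compared genes. In the other direction 3 of 46 (6.52%) had 0 counts in the Venus-negative and at least 50 in the Venus-positive library, against 4.41% of genes. The counting interval says nothing about how often such genes would be missed in a second library.

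**Figure D1:**
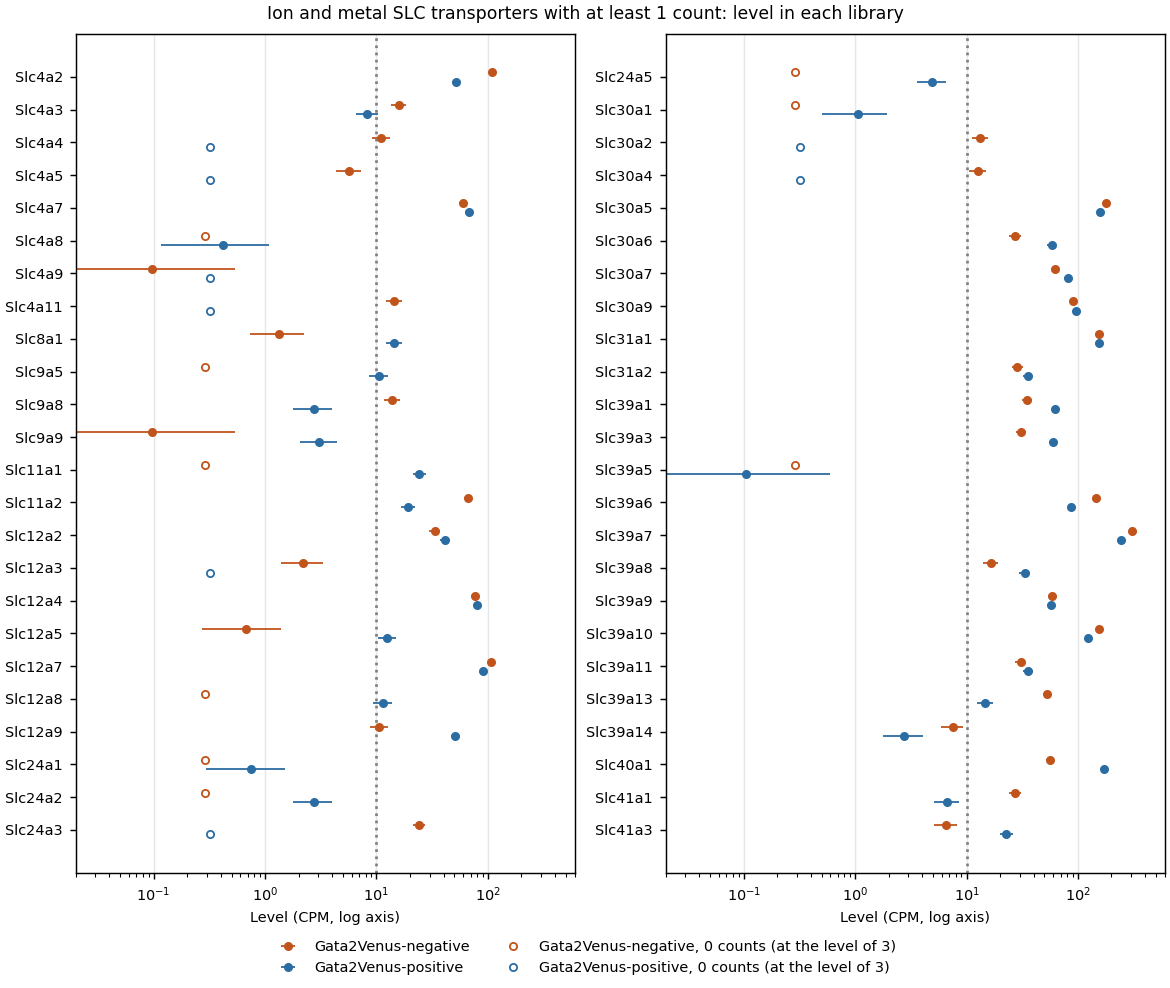
Level of ion and metal transporter genes with at least 1 count, in CPM on a log axis, in the Venus-negative (orange, upper point of each row) and the Venus-positive library (blue, lower point). Bars are exact 95% counting intervals, cut off at the edge of the axis, open circles mark 0 counts drawn at the level of 3 counts, and the dotted line is 10 CPM. Points above 50 CPM lie close together in most rows, as for Slc31a1 at 155 CPM in both, and open circles face filled ones mainly in rows near or below 10 CPM.

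**Figure D2:**
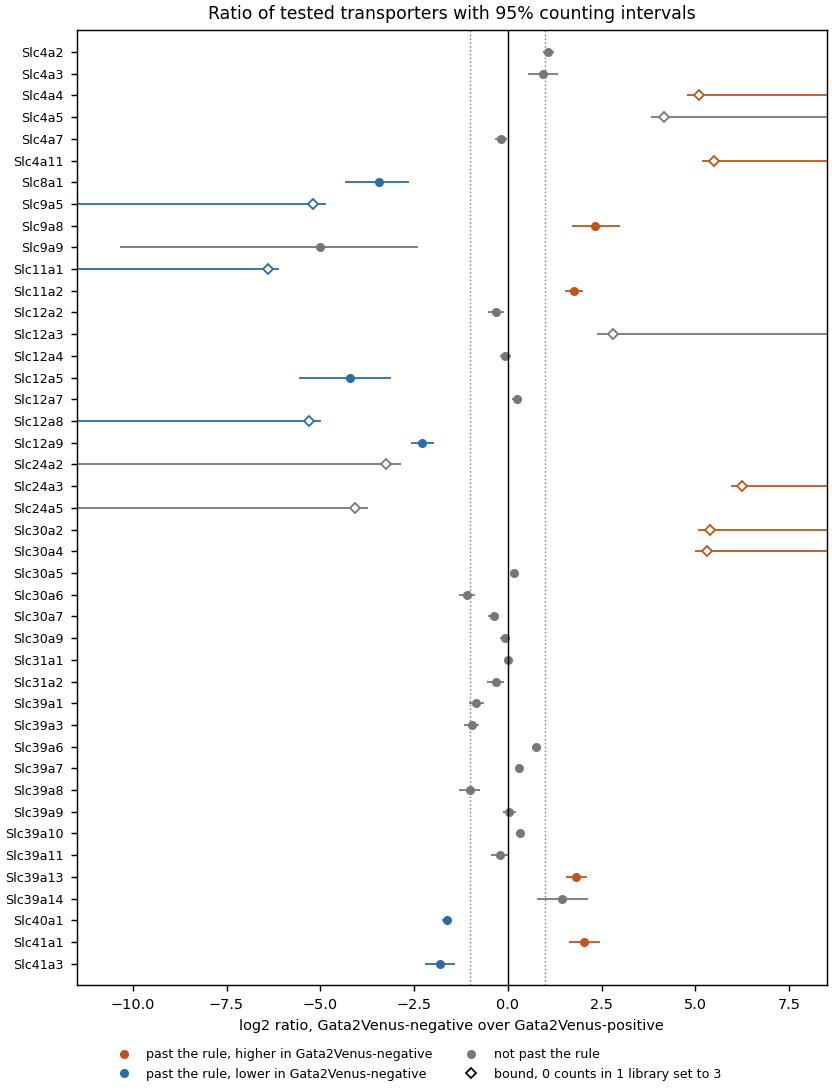
Log2 ratio of Venus-negative over Venus-positive for compared members, with 95% counting intervals. Dotted lines mark 2-fold, and open diamonds are bounds where 1 library had 0 counts. The 9 orange members past the rule lie to the right and the 8 blue ones to the left, and most grey members lie near 0.

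Iron transporters went in opposite directions. All 3 were past the rule, which is 1 higher and 2 lower in the Venus-negative library. Slc11a2 (chromosome 15, 100387898 to 100425072, mm10), the importer of ferrous iron at the cell surface and in endosomes, had 686 counts in the Venus-negative and 183 in the Venus-positive library. It was 3.41-fold higher in the Venus-negative library, at 65.9 CPM [61.1 to 71.0] against 19.3 CPM [16.6 to 22.4], a log2 ratio of 1.77 [1.53 to 2.01]. Slc40a1 (chromosome 1, 45908068 to 45926523), the exporter, had 580 counts in the Venus-negative and 1624 in the Venus-positive library, or 55.7 and 172 CPM. It was 3.08-fold lower in the Venus-negative library (log2 ratio −1.62 [−1.76 to −1.49]). Slc11a1 (chromosome 1, 74375195 to 74386062), which pumps divalent metals out of the phagosomes of macrophages, had 0 counts in the Venus-negative and 230 in the Venus-positive library (24.3 CPM [21.3 to 27.7]). That put it at least 84.4-fold lower in the Venus-negative library by the bound with 3 counts. The end of its interval nearest to equal expression was a log2 ratio of −6.09. Per length, the ferroportin gene exceeded the importer gene in the Venus-positive library (19.1 against 3.05 CPM per kilobase of exon). In the Venus-negative library it did not (6.19 against 10.4). These values use merged exons of 9000 bases for Slc40a1 and 6354 for Slc11a2, and the transcripts present were not determined. The order in the Venus-negative library, where the CPM values are close, therefore depends on the lengths taken.

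Macrophage genes moved with Slc40a1 and Slc11a1 and against Slc11a2. Of 11 compared macrophage markers 8 were lower and 1 was higher in the Venus-negative library, against 12.3% and 12.6% of all compared genes. The summed level of these markers was 227 CPM in the Venus-negative and 1025 CPM in the Venus-positive library. Cx3cr1 had 3 and 1150 counts, Timd4 0 and 138, and Cd14, in the other direction, 126 and 0. The part of these cells in the values of these transporters was not tested. In RNA of a whole population, fewer cells of a type and less RNA per cell cannot be told apart.

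Other iron genes were split as well. Of 13 compared genes of iron handling 2 were higher and 2 lower in the Venus-negative library, and the remaining 9 were not past the rule. That is 15.4% in each direction, near the 12.6% higher and 12.3% lower of all compared genes. Steap2, a metalloreductase gene, had 427 and 81 counts (log2 ratio 2.26 [1.91 to 2.62]). Aco1, which encodes an iron-sensing RNA-binding protein, stood at 175 and 71.1 CPM (log2 ratio 1.30 [1.17 to 1.43]). Steap3, the ferrireductase of erythroid endosomes, had 0 and 109 counts. Fth1, the ferritin heavy chain gene, stood at 565 and 1301 CPM (log2 ratio −1.20 [−1.25 to −1.16]), and its many processed copies make its counts uncertain. The transferrin receptor gene Tfrc, the main iron uptake route of erythroid cells, stood at 112 and 102 CPM and was not past the rule.

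Zinc importers had the largest summed level of the families, though not each member was abundant. The SLC39 sum was 836 CPM in the Venus-negative and 721 CPM in the Venus-positive library, of which Slc39a7 held 303 and 245. Of the 10 compared members 9 were not past the rule. Per length, Slc39a7, the ZIP7 importer that releases zinc from the endoplasmic reticulum, had the highest level of all 68 members in both libraries. It stood at 117 CPM per kilobase in the Venus-negative [113 to 122] and 94.7 in the Venus-positive library [90.9 to 98.7], from 3157 and 2315 counts. In the GENCODE annotation 80.7% of its exonic bases are shared with the overlapping gene Gm20427, so its count depends on how the authors' annotation treated that gene. Slc39a6 and Slc39a10, whose proteins form a zinc importer together, had 1526 and 818 counts and 1606 and 1159 counts. Slc39a6 stood at 147 and 86.5 CPM (log2 ratio 0.76 [0.64 to 0.89]) and Slc39a10 at 154 and 123 CPM (log2 ratio 0.33 [0.22 to 0.44]). For Slc39a7 the log2 ratio was 0.31 [0.23 to 0.39]. These 3 abundant importers thus had somewhat larger values in the Venus-negative library without reaching the rule.

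The surface importers Slc39a1 and Slc39a3 had smaller values in the Venus-negative library, again short of the rule. Slc39a1 had 367 counts in the Venus-negative and 595 in the Venus-positive library (log2 ratio −0.84 [−1.03 to −0.65]). Slc39a3 had 322 and 569 counts (log2 ratio −0.96 [−1.16 to −0.76]). Slc39a8, a carrier of zinc and manganese, had 171 and 315 counts (log2 ratio −1.02 [−1.30 to −0.75]), a ratio just over 2-fold whose interval was not. Slc39a9 (614 and 542 counts) and Slc39a11 (318 and 336 counts), both reported in the Golgi, differed by little.

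Slc39a13 was the only SLC39 gene past the rule. Its protein, ZIP13, acts in the secretory pathway and is known from connective tissue, where its loss impairs bone, tooth and skin. Slc39a13 (chromosome 2, 91061791 to 91070417) had 547 counts in the Venus-negative and 140 in the Venus-positive library, at 52.5 CPM [48.2 to 57.1] and 14.8 CPM [12.5 to 17.5]. It was 3.55-fold higher in the Venus-negative library (log2 ratio 1.83 [1.56 to 2.11]). Many mesenchymal genes moved with it, though not all. Of 13 compared markers of mesenchyme and smooth muscle 8 were higher and 0 lower in the Venus-negative library. The shares over all compared genes were 12.6% and 12.3%. These markers summed to 7796 CPM in the Venus-negative and 4805 CPM in the Venus-positive library. Most of that difference was Col3a1, at 3249 and 1310 CPM. The connective tissue genes Dcn (187 and 313 CPM), Col1a2 (768 and 840 CPM) and Lum (462 and 500 CPM) had smaller values in the Venus-negative library, short of the rule. Twist1 was the 1 marker at 0, in the Venus-positive library. Their part in the Slc39a13 value was not tested. Slc39a14, an importer of zinc, manganese and free iron, had 78 and 26 counts and did not reach 10 CPM. Slc39a5 had 0 and 1 counts, and Slc39a2, Slc39a4 and Slc39a12 had 0 in both libraries.

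Of the zinc exporters of the SLC30 family, those past the rule were counted in the Venus-negative library alone. Of 6 compared members 2 were higher and 0 lower in the Venus-negative library, and the remaining 4 were not past the rule. Over all compared genes 12.6% were higher and 12.3% lower. Slc30a2 (chromosome 4, 134343181 to 134354484), the ZnT2 transporter that loads vesicles and supplies zinc to milk, had 138 counts in the Venus-negative and 0 in the Venus-positive library (13.3 CPM [11.1 to 15.7]). Slc30a4 (chromosome 2, 122681233 to 122702663), another vesicular exporter and the owner of the second promoter shown, had 131 and 0 counts (12.6 CPM [10.5 to 14.9]). They were at least 41.8-fold and at least 39.7-fold higher in the Venus-negative library. The interval ends nearest to equal expression were log2 ratios of 5.07 for Slc30a2 and 4.99 for Slc30a4. Slc30a1, the exporter of the plasma membrane and owner of the first promoter, had only 0 counts in the Venus-negative and 10 in the Venus-positive library.

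The exporters of the secretory pathway and mitochondria were present in both libraries. Slc30a5 had 1853 and 1500 counts, at 178 CPM in the Venus-negative [170.0 to 186] and 159 CPM in the Venus-positive library [151 to 167], a log2 ratio of 0.17 [0.07 to 0.27]. Slc30a6, whose protein works as a heteromer with that of Slc30a5, had 284 counts in the Venus-negative and 548 in the Venus-positive library (log2 ratio −1.09 [−1.30 to −0.88]). The Golgi exporter gene Slc30a7 had 649 and 765 counts, and Slc30a9, needed for zinc export from mitochondria, had 946 and 907. Slc30a3, Slc30a8 and Slc30a10 had 0 counts in both libraries. As background, these are the transporter genes of synaptic vesicles, of insulin granules and of manganese export. Summed per length, the SLC30 genes stood at 52.2 CPM per kilobase in the Venus-negative and 55.8 in the Venus-positive library, and the SLC39 genes at 230 and 202.

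**Figure D3:**
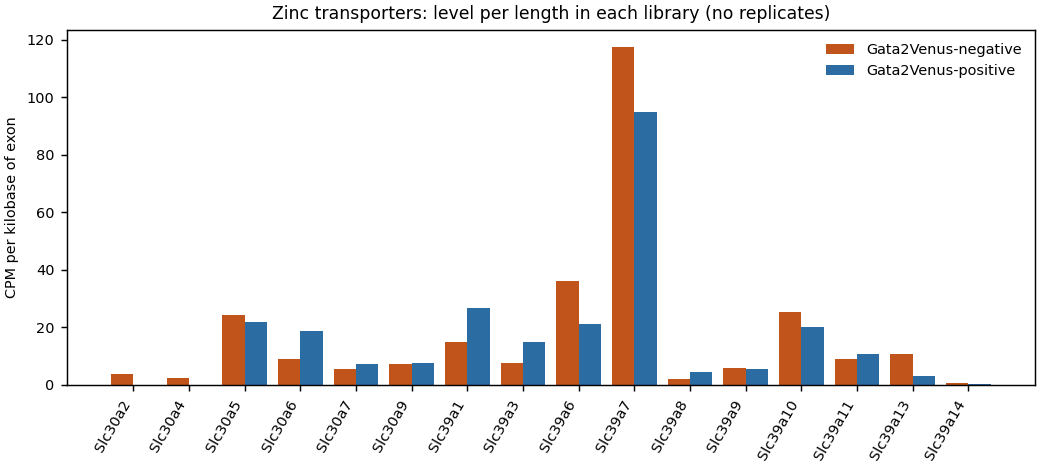
Level per length, in CPM per kilobase of exon, of the 16 compared zinc transporter genes in the Venus-negative (orange, left bar) and the Venus-positive library (blue, right bar), 1 library each. Slc39a7 stands highest in both at 117 and 94.7, Slc39a13 is taller in the Venus-negative library, and Slc30a2 and Slc30a4 have no bar in the Venus-positive library.

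Of 5 compared genes that buffer and sense zinc 3 were lower and 1 was higher in the Venus-negative library, against 12.3% and 12.6% of all compared genes. Mt1 and Mt2, 2 of the 3, are close relatives. The metallothionein gene Mt1, whose protein binds zinc and copper, had 116 and 890 counts (log2 ratio −3.08 [−3.37 to −2.80]), and its relative Mt2 had 48 and 137 (log2 ratio −1.65 [−2.16 to −1.17]). Tmem163, a zinc transporter gene outside the SLC30 family, had 0 and 118 counts. Zfp658 went the other way with 214 and 1. Mtf1, the factor that binds metal response elements, had 203 and 102 counts and was not past the rule (log2 ratio 0.85).

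Copper transporters differed little. Slc31a1, the high affinity copper importer CTR1, had 1615 counts in the Venus-negative and 1462 in the Venus-positive library, and stood at 155 CPM in both (intervals 148 to 163 and 147 to 163). Its log2 ratio was 0.005 [−0.098 to 0.11], so a difference of 2-fold between these libraries lay far outside counting error. Per length it was the second of all 68 members in both libraries, and in the Venus-negative library its level of 36.2 CPM per kilobase could not be told from the 36.0 of Slc39a6 by their counting intervals. Slc31a2, found on internal membranes, had 298 and 338 counts. Over all compared genes 12.3% were lower and 12.6% higher in the Venus-negative library. Among 11 compared genes of copper handling 5 were lower and 0 higher there. These include Mt1 and Mt2, already counted with zinc, Cox11 with 99 and 303 counts (log2 ratio −1.75 [−2.09 to −1.42]) and Cox17, a copper chaperone of cytochrome oxidase, with 247 and 600 (log2 ratio −1.42 [−1.64 to −1.20]). The copper pump gene Atp7a had 1100 and 714 counts and was not past the rule.

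Magnesium transporters of the SLC41 family went both ways. Slc41a1 (chromosome 1, 131827493 to 131848865), a magnesium carrier of the plasma membrane, had 285 counts in the Venus-negative and 63 in the Venus-positive library, 4.11-fold higher in the Venus-negative library (log2 ratio 2.04 [1.64 to 2.46]). Slc41a3 (chromosome 6, 90604725 to 90646412), assigned to magnesium export from mitochondria, had 68 and 215 counts, 3.48-fold lower in the Venus-negative library (log2 ratio −1.80 [−2.21 to −1.40]). The third gene, Slc41a2, had 0 counts in both. Of 13 other magnesium genes compared 3 were higher and 1 lower in the Venus-negative library, against 12.6% and 12.3% of all compared genes. Nipal1 had 179 and 0 counts, Cnnm2 115 and 0, Cnnm3 125 and 9 (log2 ratio 3.66 [2.69 to 4.82]), and Cnnm4 0 and 254. CNNM genes, whose proteins take part in magnesium transport, thus stood on both sides.

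Members of the SLC4 family, most of them bicarbonate transporters, were higher in the Venus-negative library where they were past the rule. Of 6 compared members 2 were higher, 0 lower and 4 not past it, against 12.6% higher and 12.3% lower of all compared genes. Slc4a4 (chromosome 5, 88886818 to 89239653), the electrogenic sodium bicarbonate cotransporter of kidney and pancreas epithelium, had 114 counts in the Venus-negative and 0 in the Venus-positive library (10.9 CPM [9.03 to 13.2]), at least 34.5-fold higher. Slc4a11 (chromosome 2, 130684113 to 130697519), known from the corneal endothelium, had 150 and 0 counts (14.4 CPM [12.2 to 16.9]), at least 45.4-fold higher. The interval ends nearest to equal expression were log2 ratios of 4.79 for Slc4a4 and 5.19 for Slc4a11. Slc4a5, a close relative of Slc4a4, had 59 and 0 counts and did not reach 10 CPM.

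The widely expressed chloride bicarbonate exchanger gene Slc4a2 had 1146 counts in the Venus-negative and 493 in the Venus-positive library, at 110 and 52.1 CPM. Its ratio was 2.11-fold (log2 ratio 1.08 [0.92 to 1.23]), and the interval reached below 2-fold. With scaling by total counts Slc4a2 was past the rule. Reads could be shared with the antisense neighbour Fastk, since the use of strand in counting is not given and 13.7% of the exonic bases overlap other genes. Slc4a3, the exchanger of heart and brain, had 165 and 78 counts (log2 ratio 0.94 [0.55 to 1.35]). Slc4a7, a sodium bicarbonate cotransporter gene, had 622 and 636 and differed by little. Summed per length, the 3 chloride bicarbonate exchangers stood at 15.1 CPM per kilobase in the Venus-negative and 7.22 in the Venus-positive library, most of it from Slc4a2.

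Slc4a1, which encodes band 3, the anion exchanger of red cells, had 0 counts in both libraries, as did Slc4a10. Slc4a8 had 0 and 4 counts and Slc4a9 had 1 and 0. Of 7 compared erythroid markers 4 were lower and 0 higher in the Venus-negative library, against 12.3% and 12.6% of all compared genes. The erythroid list summed to 0.192 CPM in the Venus-negative and 107 CPM in the Venus-positive library. Among others, Hemgn, Klf1, Gata1, Epor and Car1 were at 0 in the Venus-negative library, and Ank1, Rhag, Rhd and Kel at 0 in both. Epithelial markers, looked at beside Slc4a4 and Slc30a2, had 4 of 9 compared genes higher and 1 lower in the Venus-negative library, with 468 CPM summed there and 332 CPM in the Venus-positive library. Cldn7 was at 0 in the positive and Cldn4 at 0 in the Venus-negative library. The part of epithelial cells in the transporter values was not tested.

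Carbonic anhydrases, which make bicarbonate, were split between the libraries. Of 9 compared genes 2 were higher and 2 lower in the Venus-negative library, against 12.6% and 12.3% of all compared genes. Car7 had 330 and 0 counts and Car14 had 540 and 156 (log2 ratio 1.65 [1.39 to 1.92]), whereas the red cell gene Car1 had 0 and 158 and Car2 had 80 and 437 (log2 ratio −2.59 [−2.95 to −2.24]). Among 5 compared genes of the related SLC26 anion exchangers and SLC9B exchangers 2 were lower in the Venus-negative library, and the remaining 3 were not past the rule. Slc26a2, a sulfate transporter gene needed for cartilage, had 224 and 490 counts (log2 ratio −1.27 [−1.50 to −1.04]), and Slc26a11 had 68 and 191 (log2 ratio −1.63 [−2.05 to −1.22]). The other 3 were counted in the Venus-negative library alone, with 83 counts for Slc26a6, 74 for Slc26a10 and 77 for Slc9b2. They were at least 22.4-fold higher there but did not reach 10 CPM, and the median log2 ratio of the 5 genes was 4.49, itself such a bound.

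Sodium proton exchangers of the SLC9 family were weakly expressed. Of 5 compared members 1 was higher, 1 lower and 3 not past the rule, against 12.6% higher and 12.3% lower of all compared genes. Slc9a8 (chromosome 2, 167421712 to 167477000), an exchanger of the Golgi, had 144 counts in the Venus-negative and 26 in the Venus-positive library, 5.03-fold higher in the Venus-negative library (log2 ratio 2.33 [1.72 to 2.99]). Slc9a5 (chromosome 8, 105348843 to 105369881), known mainly from brain, had 0 and 99 counts (10.5 CPM in the Venus-positive library [8.51 to 12.7]). It was at least 36.3-fold lower in the Venus-negative library, with the interval end nearest to equal expression at a log2 ratio of −4.86. Slc9a9, of endosomes, had 1 count in the Venus-negative and 29 in the Venus-positive library. Slc9a2, Slc9a3, Slc9a4 and Slc9a7 had 0 counts in both libraries.

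Partners of these exchangers had 3 of 11 compared genes lower and 0 higher in the Venus-negative library. The shares of all compared genes were 12.3% lower and 12.6% higher. The scaffold gene Slc9a3r2 had 635 and 1513 counts (log2 ratio −1.39 [−1.53 to −1.26]), the scaffold gene Pdzk1 had 8 and 172, and Rps6ka1, a kinase gene, had 507 and 1508 (log2 ratio −1.71 [−1.86 to −1.57]). Slc9a3r1, a close relative of Slc9a3r2, had 1199 and 606 counts and was not past the rule (log2 ratio 0.85). Sodium pump genes had 0 of 10 compared members past the rule in either direction.

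Among the cation chloride cotransporters of the SLC12 family 3 of 8 compared members were lower in the Venus-negative library. None of the others was higher, and 5 were not past the rule. The shares of all compared genes were 12.3% lower and 12.6% higher. Slc12a9 (chromosome 5, 137314558 to 137333597), whose protein was first described as a partner of the cotransporters, had 110 counts in the Venus-negative and 484 in the Venus-positive library, at 10.6 CPM [8.68 to 12.7] and 51.2 CPM [46.7 to 55.9]. It was 4.84-fold lower in the Venus-negative library (log2 ratio −2.28 [−2.59 to −1.97]). Slc12a8 (chromosome 16, 33517328 to 33664135) had 0 and 108 counts, at least 39.6-fold lower. The end of its interval nearest to equal expression was a log2 ratio of −4.99. Slc12a5 (chromosome 2, 164960802 to 164999731), the potassium chloride cotransporter of neurons, had 7 and 118 counts (log2 ratio −4.21 [−5.56 to −3.13]).

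Neuronal markers were examined beside Slc12a5. Of 5 compared neuron and neural crest genes 1 was higher and 1 lower in the Venus-negative library, against 12.6% and 12.3% of all compared genes. The list summed to 106 CPM in the Venus-negative and 89.5 CPM in the Venus-positive library. Isl1 alone held 89.6 and 15.5 CPM of these sums. Stmn2 had 0 and 372 counts and Isl1 had 933 and 147, Elavl4 was at 0 in the Venus-negative library, and Sox10, Th and Tubb3 were at 0 in both. The part of such cells in the Slc12a5 value was not tested.

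The abundant cotransporters were near equal. Slc12a7 had 1110 counts in the Venus-negative and 856 in the Venus-positive library, at 107 CPM [100.4 to 113] and 90.5 CPM [84.5 to 96.8], a log2 ratio of 0.24 [0.11 to 0.37]. Slc12a4, the housekeeping potassium chloride cotransporter, had 795 and 756 counts. Slc12a2, the sodium potassium chloride importer of most cells, had 347 and 393 counts (log2 ratio −0.32 [−0.53 to −0.11]). The kidney cotransporter gene Slc12a1 had 0 counts in both libraries, and Slc12a3 had 23 and 0.

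The 2 kinases that phosphorylate these cotransporters directly were lower in the Venus-negative library. Of 8 compared genes of the WNK pathway 3 were lower, 0 higher and 5 not past the rule. Of all compared genes 12.3% were lower and 12.6% higher. Oxsr1 and Stk39 encode the kinases OSR1 and SPAK, which act on SLC12 proteins directly. Oxsr1 had 3 counts in the Venus-negative and 457 in the Venus-positive library (log2 ratio −7.39 [−9.67 to −5.83]), and Stk39 had 44 and 198 (log2 ratio −2.31 [−2.81 to −1.83]). Cab39, which encodes the activating partner MO25 of both kinases, had 105 and 831 counts (log2 ratio −3.12 [−3.43 to −2.83]). Wnk1, the upstream kinase, had 962 and 1379 counts and was not past the rule (log2 ratio −0.66), and the Cab39 relative Cab39l had 504 and 346.

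Calcium exchangers were nearly absent apart from 1 gene in each library. Slc8a1 (chromosome 17, 81373105 to 81738377), the sodium calcium exchanger of the early heart and owner of the third promoter shown, had 14 counts in the Venus-negative and 137 in the Venus-positive library, at 1.34 CPM [0.735 to 2.26] and 14.5 CPM [12.2 to 17.1]. It was 10.8-fold lower in the Venus-negative library (log2 ratio −3.43 [−4.34 to −2.63]). Slc24a3 (chromosome 2, 145167754 to 145642166), a potassium-dependent sodium calcium exchanger, had 252 and 0 counts (24.2 CPM [21.3 to 27.4]). It was at least 76.3-fold higher in the Venus-negative library, with the interval end nearest to equal expression at a log2 ratio of 5.94. The other SLC24 genes had few counts, with 0 and 7 for Slc24a1, 0 and 26 for Slc24a2, 0 and 46 for the pigment cell gene Slc24a5, and 0 in both libraries for Slc24a4. Of the Slc24a5 exonic bases 39.5% overlap Myef2 on the other strand. Slc8a2 and Slc8a3 had 0 counts in both.

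Calcium pumps and mitochondrial calcium genes had 4 of 13 compared members lower and 0 higher in the Venus-negative library. Of all compared genes 12.3% were lower and 12.6% higher. The remaining 9 members were not past the rule. Among them the pump genes Atp2a2, at 118 and 117 CPM, Atp2b1, at 202 and 192, and Atp2c1, at 102 and 115, differed by little. Atp2a3, a calcium pump gene of blood cells and endothelium, had 1 and 564 counts (log2 ratio −9.28 [−14.58 to −6.79]). Mcu, the mitochondrial calcium uniporter, had 19 and 539 (log2 ratio −4.96 [−5.71 to −4.31]), and Atp2c2 had 0 and 98. Many megakaryocyte and endothelial markers moved the same way. The endothelial gene Pecam1 went slightly the other way, at 537 and 489 CPM, short of the rule. Of 10 compared megakaryocyte markers 7 were lower and 0 higher in the Venus-negative library (87.0 and 466 CPM summed, with Gp1bb and Gp5 at 0 in the Venus-negative library), and of 10 endothelial markers 5 were lower and 0 higher (2741 and 4923 CPM, none at 0). Their part in the calcium gene values was not tested.

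**Figure D4:**
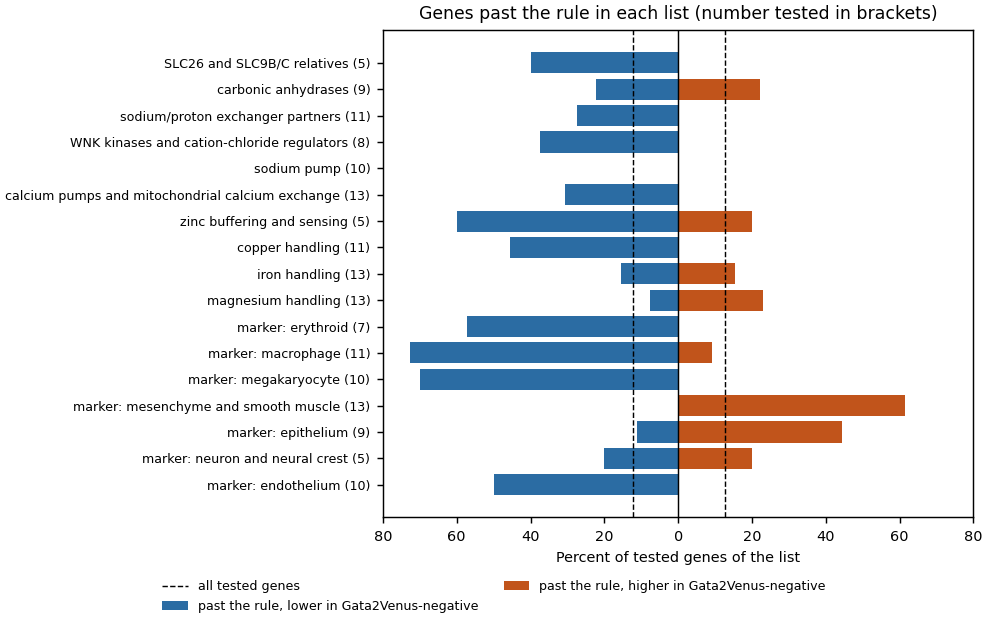
Share of compared genes in each list that were past the rule of size, to the left when lower in the Venus-negative library (blue) and to the right when higher (orange), with the number compared in brackets. Dashed lines are the shares over all compared genes, 12.3% and 12.6%. Some lists share genes (Mt1 and Mt2, and Car1), and lists of 5 genes move by 20 percentage points with 1 gene. Macrophage and megakaryocyte markers reach farthest to the left at 72.7% and 70.0%, mesenchymal markers farthest to the right at 61.5%, and the sodium pump has no bar.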

How the data were processed

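RNA was extracted with Ambion's mirVana kit and amplified by SMARTER, per the labels' protocols. TopHat, Cufflinks, HTSeq and the build mm10 are named per the submitters' processing notes. Their versions, the annotation and the strand setting were not given in the sources used here. Overlapping, antisense and near-identical genes are therefore uncertain. The authors deposited raw counts per gene symbol, 1 table per library. Alignments that were not unique held 45.5% (negative) and 48.2% (positive) of all counts, reads in no feature 5.93% and 7.996% and ambiguous reads 0.474% and 0.412%, and all were left out.

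Totals over genes were scaled by edgeR 4.0.16 TMM factors (1.03 and 0.974). Ratio intervals are Clopper-Pearson given the gene's total, and level intervals are Poisson (scipy 1.17.1). Exonic lengths, coordinates and overlaps come from GENCODE vM21, where all 68 members matched by symbol, and promoters from RefSeq. With 1 library per group no test was run. All members past the rule of size or at 100 CPM or more are given in full, others by counts, and from each list up to 4 genes per direction past the rule, ranked by the interval end nearest to equal expression. Other genes named from a list, and the grouping of members by transport role, were chosen after values were seen. The members and lists were chosen with earlier results of these data known. The steps were tested on simulated data with counting error alone, which cannot show how the rule performs when libraries of a group vary. A few genes are not reported here by name and stay in the counts over families and lists.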

Additional observations from a re-analysis of the deposited data

How the results depend on the processing

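The alternatives were other scalings, other filters, a larger ratio, no interval and an assumed spread. Scaling by total counts gave 10 members higher and 8 lower in the Venus-negative library (13.9% and 11.3% of all compared genes), and DESeq2 1.42.0 size factors or TMM without the 100 most abundant genes gave 9 and 8. A filter of 1 CPM and 10 counts, or none, gave 12 and 12 (17.6% and 18.3%), and a 2-fold ratio without the interval 11 and 10 (15.8% and 15.4%). With these 2 looser filters the 12 lower members include Slc30a1, which at 0 and 10 counts was not among the compared genes that the percentages cover. With a filter of 50 CPM 2 were higher and 2 lower (5.01% and 4.34%), since 13 of the 17 members past the rule stay below that level. An interval beyond 4-fold gave 5 and 5 (5.93% and 5.99%), and so did assuming that libraries vary with a coefficient of 0.4 (5.29% and 5.52%). In both of these Slc11a2, Slc39a13, Slc41a1, Slc9a8, Slc12a9, Slc40a1 and Slc41a3 were no longer past the rule. The median log2 ratio of the members lay between −0.03, over those above 3 counts in both libraries, and 0.10, with total counts. These alternatives either leave the ratios as they are or shift all genes alike, so they do not test a direction. Leaving out a replicate was not possible with 1 library per group, and no paired analysis was possible because each group has 1 library.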

Other observations

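Some relatives with names outside the chosen families are closely linked to them in function. They were looked at after their values were known. Slc8b1, the sodium calcium exchanger of mitochondria, had 1 count in the Venus-negative and 52 in the Venus-positive library (log2 ratio −5.84 [−11.17 to −3.30]) and did not reach 10 CPM. Slc9b1, of the sodium proton exchangers, had 0 and 18. Slc4a1ap, a gene named for the binding of its protein to band 3, had 337 and 639 counts (log2 ratio −1.06 [−1.26 to −0.87]), while Slc4a1 itself had 0 in both libraries.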
